A study of Mus musculus with 4 samples.

Results

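A set of 40 genes of the muscle contractile machinery was followed across muscle stem cells of 2 muscles, in culture and directly after isolation. The set was chosen by gene symbol and covers the filaments, Z-discs and M-bands of the sarcomere, its chaperones, the calcium-handling proteins that couple excitation to contraction, and 3 acetylcholine receptor subunits; actins and myosin heavy chains are not in it. A gene counted as measured when it reached 5 CPM, that is 5 counts of unique molecular identifiers (UMIs) with a library's kept cells scaled to 1000000 UMIs, in any of 4 libraries. All 40 symbols were among the 31055 listed features and 32 of them were measured, as were 10322 features altogether. The other 8 stayed below that limit in every library. The fast myosin-binding protein C gene Mybpc2 reached at most 0.0654 CPM, the slow light chain genes Myl3 and Myl2 at most 0.468 and 0.743 CPM, the fast myozenin gene Myoz1 0.610 CPM, the M-band gene Myom1 3.47 CPM, the calcium channel gene Cacna1s 3.87 CPM, the titin-cap gene Tcap 4.68 CPM and the slow myozenin gene Myoz2 4.81 CPM. Myom2, at 8.08 CPM, lay just inside.

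The cells were GFP-sorted muscle stem cells of Tg:Pax7-nGFP mice, 2 to 4 months old, in which nuclear GFP reports Pax7. One library each was made from activated EOM cells, activated TA cells, quiescent EOM cells and quiescent TA cells, where EOM stands for the extraocular muscles that move the eye and TA for the tibialis anterior of the lower leg. Activated cells had spent 4 days in growth medium on Matrigel at 3% oxygen, whereas quiescent cells went from the sorter straight to single-cell RNA sequencing on the 10x Genomics platform. All 4 groups carried the transgene, the GFP gate selected them all, and the number of animals behind a library is not given in the sources used here. With 1 library per group there was no replicate and no test between groups; all intervals in parentheses are exact 95% intervals that cover counting error only.

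In the sarcomere, thick filaments of myosin slide along thin filaments of actin. Troponin and tropomyosin on the thin filament open it to myosin when calcium is released from the sarcoplasmic reticulum, Z-disc proteins such as alpha-actinin anchor the thin filaments, and titin and nebulin span the structure as scaffolds. Many of these proteins come in slow, fast and cardiac forms encoded by separate genes, and developing skeletal muscle transiently uses embryonic and cardiac forms. The genes are switched on as myoblasts leave the cell cycle under Myod1, Myog and Mef2 factors. Activated cells were therefore also ordered by Myog level. That is a guide to differentiation from a single gene, and an equal level need not be an equal stage in both muscles.

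After filtering, 5566 activated EOM, 4284 activated TA, 3596 quiescent EOM and 2902 quiescent TA cells remained, with 122868688, 102471329, 17497225 and 15286796 UMIs. The floor used for a gene without a UMI, 3 UMIs over a library, equalled 0.0244 CPM in activated EOM, 0.0293 CPM in activated TA, 0.171 CPM in quiescent EOM and 0.196 CPM in quiescent TA, so the quiescent libraries resolved low levels less finely. Library pairs shared 5 to 12 cell barcodes, 3 to 6 of them among the kept cells. All 8 stem cell markers looked up, Pax7 and Myf5 among them, were at 5 CPM or more in both quiescent libraries, as were 6 of 8 in both activated libraries. Of 8 genes of mature fibres, 4 reached 5 CPM in activated EOM and 3 did so in activated TA, against none in either quiescent library. The summed level of those 8 genes was 557 CPM in activated EOM and 828 CPM in activated TA, against 5.60 CPM in quiescent EOM and 6.22 CPM in quiescent TA. Most of it was the enolase gene Eno3, at 503 CPM in activated EOM and 783 CPM in activated TA. Myh2, Myh4, Myh7 and Ckmt2 reached at most 0.683 CPM in any library.

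The promoters shown here belong to the genes that the results below turn on: the fast light chains Mylpf and Myl1, the slow and cardiac troponin T genes Tnnt1 and Tnnt2, the slow and cardiac troponin C gene Tnnc1, and the tropomyosin gene Tpm3, which went the other way. Each runs from 250 bases before to 50 bases after a RefSeq transcript start on GRCm38.p6, 5′ to 3′ on the gene's strand. Mylpf lies at chr7:127211358-127211657 (plus strand), Myl1 at chr1:66945007-66945306 (minus), Tnnt1 at chr7:4515926-4516225 (minus) and Tnnc1 at chr14:31208062-31208361 (plus). Tnnt2 has starts at chr1:135836084-135836383 and chr1:135836739-135837038 (both plus), and Tpm3 at chr3:90072401-90072700 and chr3:90079271-90079570 (both plus). Capitals mark CAGCTG, an E-box of the kind bound by myogenic factors, and CATTCC or its reverse complement GGAATG, the core of the MCAT element bound by TEAD factors.
Mylpf: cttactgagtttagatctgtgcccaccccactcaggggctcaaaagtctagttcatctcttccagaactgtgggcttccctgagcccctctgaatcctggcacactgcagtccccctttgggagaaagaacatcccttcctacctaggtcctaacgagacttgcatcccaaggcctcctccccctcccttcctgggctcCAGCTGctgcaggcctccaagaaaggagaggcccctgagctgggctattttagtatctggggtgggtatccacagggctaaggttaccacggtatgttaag
Myl1: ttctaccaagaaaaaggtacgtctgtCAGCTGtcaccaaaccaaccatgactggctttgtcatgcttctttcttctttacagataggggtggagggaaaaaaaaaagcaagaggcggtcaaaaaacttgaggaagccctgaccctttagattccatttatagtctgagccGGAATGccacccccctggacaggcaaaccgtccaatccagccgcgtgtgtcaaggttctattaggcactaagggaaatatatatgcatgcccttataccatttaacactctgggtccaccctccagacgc
Tnnt1: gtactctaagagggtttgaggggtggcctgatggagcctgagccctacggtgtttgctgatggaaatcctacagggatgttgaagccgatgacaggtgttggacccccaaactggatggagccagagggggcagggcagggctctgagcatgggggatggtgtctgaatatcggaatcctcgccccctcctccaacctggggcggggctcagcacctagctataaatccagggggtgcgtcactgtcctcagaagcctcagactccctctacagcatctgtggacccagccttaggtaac
Tnnt2, first start: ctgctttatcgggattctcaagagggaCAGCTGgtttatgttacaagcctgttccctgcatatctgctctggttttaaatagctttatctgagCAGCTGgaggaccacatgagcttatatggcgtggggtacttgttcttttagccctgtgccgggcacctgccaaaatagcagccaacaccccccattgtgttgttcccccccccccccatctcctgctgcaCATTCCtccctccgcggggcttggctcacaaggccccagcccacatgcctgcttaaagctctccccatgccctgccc
Tnnt2, second start: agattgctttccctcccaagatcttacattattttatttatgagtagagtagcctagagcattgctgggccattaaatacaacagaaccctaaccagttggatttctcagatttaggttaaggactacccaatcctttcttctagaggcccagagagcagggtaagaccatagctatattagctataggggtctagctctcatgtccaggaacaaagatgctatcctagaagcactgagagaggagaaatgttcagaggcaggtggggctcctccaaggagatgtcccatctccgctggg
Tnnc1: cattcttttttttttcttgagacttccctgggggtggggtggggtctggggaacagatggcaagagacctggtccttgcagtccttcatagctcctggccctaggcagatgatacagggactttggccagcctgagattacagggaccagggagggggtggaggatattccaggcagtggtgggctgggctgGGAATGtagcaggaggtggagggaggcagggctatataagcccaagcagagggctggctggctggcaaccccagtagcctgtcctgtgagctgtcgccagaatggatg
Tpm3, first start: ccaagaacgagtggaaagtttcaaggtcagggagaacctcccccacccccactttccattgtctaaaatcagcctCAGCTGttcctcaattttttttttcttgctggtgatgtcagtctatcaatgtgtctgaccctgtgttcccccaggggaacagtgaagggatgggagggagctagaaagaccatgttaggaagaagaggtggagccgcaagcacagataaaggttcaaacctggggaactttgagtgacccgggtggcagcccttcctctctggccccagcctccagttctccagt
Tpm3, second start: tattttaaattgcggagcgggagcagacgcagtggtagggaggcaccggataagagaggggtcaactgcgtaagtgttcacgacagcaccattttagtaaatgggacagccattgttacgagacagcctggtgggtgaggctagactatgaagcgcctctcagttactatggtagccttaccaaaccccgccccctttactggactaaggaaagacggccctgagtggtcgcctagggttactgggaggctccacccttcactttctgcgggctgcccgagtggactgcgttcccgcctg
Of the 40 genes, 30 had a promoter in the RefSeq table, 35 promoters in all; none is given there for Neb, Tnnt3, Tnni2, Actn3, Myom2, Myoz1, Tcap, Cryab, Cacng1 and Chrnd. CAGCTG, which reads the same on both strands, was in 18 of the 35, or 51.4%, against 16.3% of all 32851 promoters of that length in the table. CATTCC on either strand was in 9 of the 35 (25.7%), against 14.7% of all promoters. TATAAA on either strand was in 11.4%, against 13.6% of all. The serum response factor motif known as the CArG box was in 11.4%, against 1.63% of all, and the MEF2 site was in 8.57%, against 3.19%. Myl1 held both CAGCTG and CATTCC, the first Tnnt2 promoter held CAGCTG at 2 places and CATTCC once, and Tnnt1 held neither. Several promoters belong to 1 gene and a match only describes these letters.

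Most genes of the set were higher in activated cells of both muscles. The genes together held 10949 CPM in activated EOM and 13723 CPM in activated TA, against 2125 CPM in quiescent EOM and 2380 CPM in quiescent TA. In EOM, 28 of the 40 genes, 32 of them measured, were at least 2-fold higher in activated cells and 1 was at least 2-fold lower, where 25.3% of 10067 features were higher by that rule and 25.3% lower. In TA, 26 of the 40 were higher and 1 lower, where 29.1% of 9861 features were higher and 24.7% lower. The median log2 ratio of activated over quiescent was 5.97 in EOM and 5.52 in TA, with genes at 0 UMIs set at the floor, and the medians of all features were 0.06 and 0.15. With at most 5% mitochondrial UMIs allowed, the medians were 3.79 and 2.63. The 32 genes are those that reached 5 CPM anywhere, and all 32 reached it in both activated libraries, and 20 passed the filter through the activated libraries alone, so the filter itself favoured higher activated levels. Only 12 reached 5 CPM in quiescent EOM and the same number in quiescent TA: Neb, Myl4, Tnnt1, Tpm1, Tpm2, Tpm3, Actn3, Mybpc1, Cryab, Des, Atp2a1 and Chrna1 in both.

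**Figure D1:**
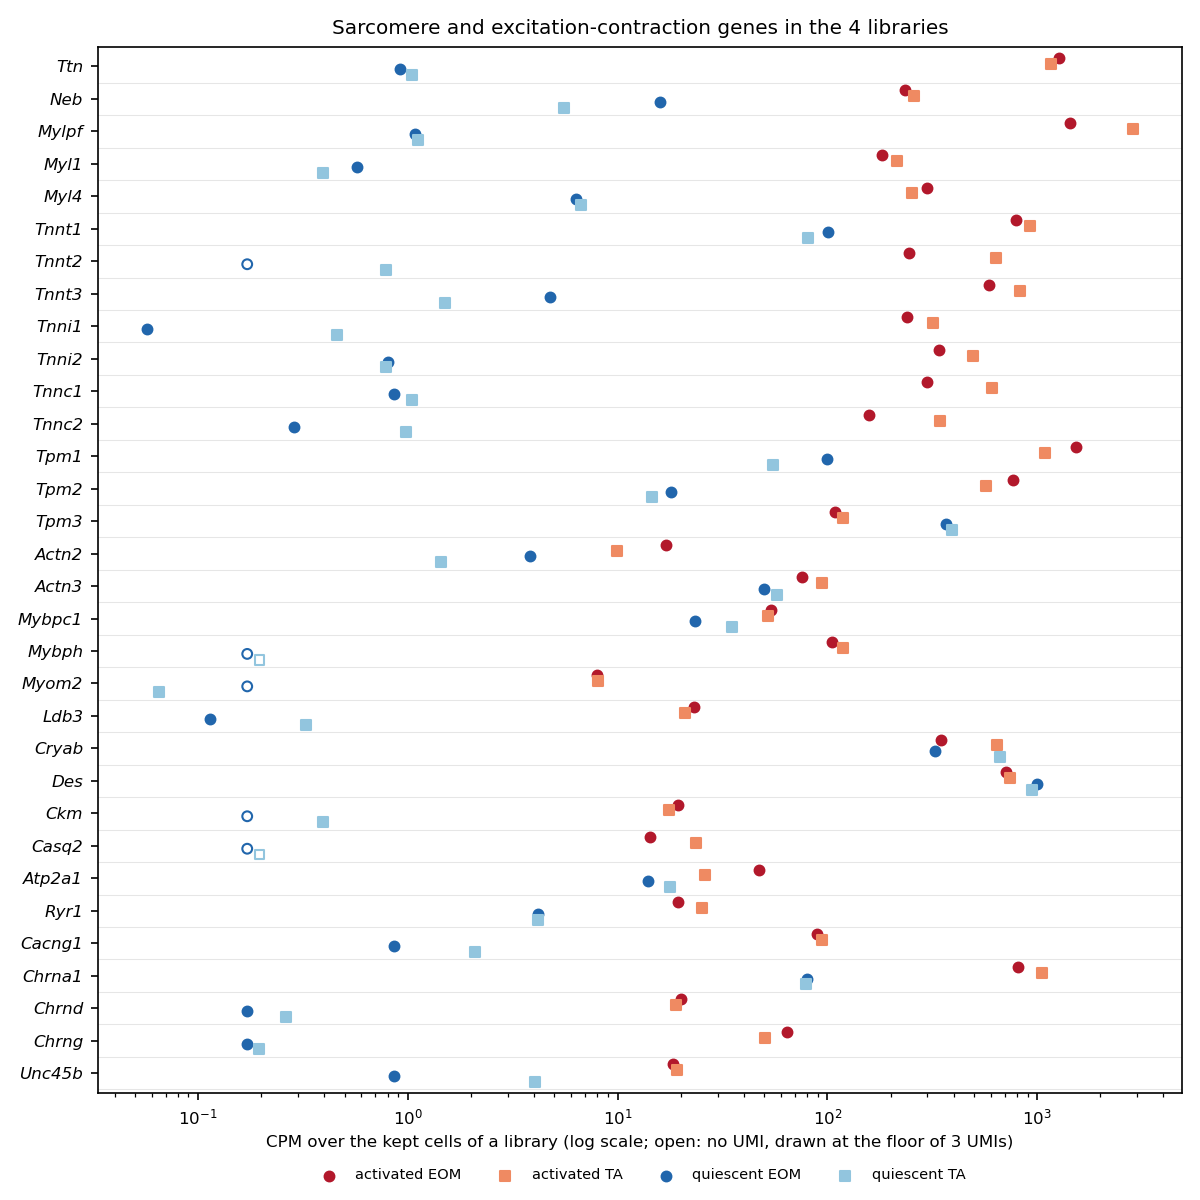
CPM of the 32 measured genes on a log axis, 1 symbol per library: activated EOM, activated TA, quiescent EOM and quiescent TA. Open symbols mark libraries with no UMI, drawn at their floor of 3 UMIs. Most genes lie to the right in both activated libraries; Tpm3 lies to the right in the quiescent ones; Des is close together in all 4, and Cryab is higher in both TA libraries.

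Among the filament scaffolds, titin was nearly absent before activation and nebulin was not. Ttn, which encodes the spring that runs from Z-disc to M-band, was at 1276 CPM in activated EOM and 1161 CPM in activated TA, against 0.914 CPM in quiescent EOM and 1.05 CPM in quiescent TA. The ratio was 1396 (859 to 2442) in EOM and 1109 (683 to 1941) in TA. Nebulin (Neb), the ruler of the thin filament, was at 235 CPM in activated EOM and 259 CPM in activated TA, against 15.9 CPM in quiescent EOM and 5.56 CPM in quiescent TA. It was thus countable before activation, and its ratio was 14.8 (13.1 to 16.7) in EOM and 46.5 (37.6 to 58.3) in TA.

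Myosin light chains stabilise the neck of the myosin head. The fast regulatory chain Mylpf was at 1431 CPM in activated EOM and 2856 CPM in activated TA, against 1.09 CPM in quiescent EOM and 1.11 CPM in quiescent TA, a ratio of 1318 (844 to 2189) in EOM and 2568 (1604 to 4409) in TA. The fast essential chain Myl1 was at 183 CPM in activated EOM and 214 CPM in activated TA, against 0.572 CPM in quiescent EOM and 0.393 CPM in quiescent TA. The embryonic and atrial essential chain Myl4 was at 299 CPM in activated EOM and 253 CPM in activated TA, against 6.34 CPM in quiescent EOM and 6.67 CPM in quiescent TA. All 3 were far apart between the states, and Myl4 was the only light chain above 5 CPM in quiescent cells.

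Troponin binds calcium and moves tropomyosin, and its T, I and C subunits each have slow and fast genes. Slow Tnnt1 was at 792 CPM in activated EOM and 922 CPM in activated TA, against an already sizeable 100.4 CPM in quiescent EOM and 80.6 CPM in quiescent TA, or 7.88 and 11.4 times as high. Cardiac Tnnt2, which embryonic skeletal muscle also uses, was at 246 CPM in activated EOM and 640.2 CPM in activated TA, against no UMI in quiescent EOM and 0.785 CPM in quiescent TA. Activation thus took it at least 1433-fold higher in EOM and 816 (467 to 1579)-fold higher in TA. Fast Tnnt3 was at 588 CPM in activated EOM and 831 CPM in activated TA, against 4.74 CPM in quiescent EOM and 1.505 CPM in quiescent TA.

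The inhibitory subunits were close to absent before activation. Slow Tnni1 was at 240.0 CPM in activated EOM and 320.3 CPM in activated TA, against 1 UMI (0.0571 CPM) in quiescent EOM and 0.458 CPM in quiescent TA; its EOM ratio of 4199 (754 to 165845) has a correspondingly wide interval. Fast Tnni2 was at 340.1 CPM in activated EOM and 497 CPM in activated TA, against 0.8001 CPM in quiescent EOM and 0.785 CPM in quiescent TA. Of the calcium-binding subunits, slow and cardiac Tnnc1 was at 299.6 CPM in activated EOM and 607 CPM in activated TA, against 0.857 CPM in quiescent EOM and 1.05 CPM in quiescent TA. Fast Tnnc2 was at 158 CPM in activated EOM and 344 CPM in activated TA, against 0.286 CPM in quiescent EOM and 0.981 CPM in quiescent TA. In every troponin gene both activated libraries were above both quiescent libraries.

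Tropomyosins, the coiled coils along the thin filament, split by gene. Tpm1 was at 1526 CPM in activated EOM and 1096 CPM in activated TA, against 99.96 CPM in quiescent EOM and 55.2 CPM in quiescent TA, and Tpm2 at 772 CPM in activated EOM and 574 CPM in activated TA, against 17.9 CPM in quiescent EOM and 14.7 CPM in quiescent TA. Tpm3, which makes a slow-muscle tropomyosin and also forms used outside muscle, ran the other way at 109 CPM in activated EOM and 119 CPM in activated TA, against 366 CPM in quiescent EOM and 393 CPM in quiescent TA. Its ratio was 0.296 (0.288 to 0.305) in EOM and 0.302 (0.292 to 0.311) in TA, the only measured gene of the set at least 2-fold lower in either muscle. The counts are per gene and do not separate the muscle and non-muscle forms of these 3 genes.

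The remaining thick filament, M-band and Z-disc genes were less abundant. Mybpc1, the slow myosin-binding protein C, was at 54.1 CPM in activated EOM and 52.4 CPM in activated TA, against 23.5 CPM in quiescent EOM and 35.2 CPM in quiescent TA. Its relative Mybph was at 106 CPM in activated EOM and 119 CPM in activated TA, against no UMI in either quiescent library, and so was at least 615-fold higher in EOM and at least 606-fold higher in TA. Alpha-actinin 3 (Actn3), the Z-disc cross-linker of fast fibres, was at 75.3 CPM in activated EOM and 94.3 CPM in activated TA, against 50.01 CPM in quiescent EOM and 57.8 CPM in quiescent TA, less than 2-fold higher in each muscle. Alpha-actinin 2 (Actn2), its counterpart in all fibres and the heart, was at 16.99 CPM in activated EOM and 9.96 CPM in activated TA, against 3.83 CPM in quiescent EOM and 1.44 CPM in quiescent TA. The Z-disc adaptor Ldb3 was at 23.1 CPM in activated EOM and 20.9 CPM in activated TA, against 0.114 CPM in quiescent EOM and 0.327 CPM in quiescent TA. M-band Myom2 was at 7.93 CPM in activated EOM and 8.08 CPM in activated TA, against no UMI in quiescent EOM and 1 UMI in quiescent TA.

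The cytoskeletal genes Des and Cryab did not follow the filament genes. Desmin (Des), the intermediate filament that links Z-discs, was at 709.5 CPM in activated EOM and 744 CPM in activated TA, against 1001 CPM in quiescent EOM and 948 CPM in quiescent TA. Its ratio of 0.709 (0.698 to 0.721) in EOM and 0.785 (0.771 to 0.799) in TA stayed within 2-fold. The small heat shock protein gene Cryab was at 347 CPM in activated EOM and 641 CPM in activated TA, against 328 CPM in quiescent EOM and 662 CPM in quiescent TA, a ratio of 1.06 (1.03 to 1.09) in EOM and 0.967 (0.947 to 0.987) in TA. Under TMM and median-of-ratios scaling, which moved all activated over quiescent ratios by 0.40 and 0.24 on the log2 scale in EOM and 0.28 and 0.17 in TA, the Cryab log2 ratio in TA was 0.23 and 0.12 in place of -0.05. Cryab overlaps Hspb2 on the opposite strand. The myosin chaperone gene Unc45b was at 18.4 CPM in activated EOM and 19.1 CPM in activated TA, against 0.857 CPM in quiescent EOM and 4.06 CPM in quiescent TA. Muscle creatine kinase (Ckm), which buffers ATP, was at 19.4 CPM in activated EOM and 17.5 CPM in activated TA, against no UMI in quiescent EOM and 0.393 CPM in quiescent TA, at least 113-fold higher in activated EOM.

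The calcium-handling genes divided by how far they were present before activation. The fast sarcoplasmic reticulum calcium pump Atp2a1 was at 47.1 CPM in activated EOM and 26.0 CPM in activated TA, against 13.9 CPM in quiescent EOM and 17.8 CPM in quiescent TA; its ratio was 3.38 (2.97 to 3.85) in EOM and 1.46 (1.29 to 1.66) in TA. The calcium release channel Ryr1 was at 19.4 CPM in activated EOM and 25.3 CPM in activated TA, against 4.17 CPM in quiescent EOM and 4.19 CPM in quiescent TA. Cacng1, a subunit of the voltage sensor, was at 89.1 CPM in activated EOM and 94.2 CPM in activated TA, against 0.857 CPM in quiescent EOM and 2.09 CPM in quiescent TA. The calcium store protein of slow and cardiac muscle, Casq2, was at 14.2 CPM in activated EOM and 23.6 CPM in activated TA and had no UMI in either quiescent library, so it was at least 83.1-fold higher in EOM and at least 120.4-fold higher in TA. In all 4 genes both activated libraries were above both quiescent libraries.

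Of the acetylcholine receptor subunits, which receive the motor nerve's signal, the alpha subunit Chrna1 was at 807 CPM in activated EOM and 1050.0 CPM in activated TA, against 80.0 CPM in quiescent EOM and 79.4 CPM in quiescent TA. Its ratio was 10.1 (9.57 to 10.6) in EOM and 13.2 (12.5 to 14.0) in TA. The delta subunit Chrnd was at 20.1 CPM in activated EOM and 19.1 CPM in activated TA, against 0.172 CPM in quiescent EOM and 0.262 CPM in quiescent TA. The embryonic gamma subunit Chrng was at 63.9 CPM in activated EOM and 50.3 CPM in activated TA, against 0.172 CPM in quiescent EOM and 0.196 CPM in quiescent TA. The subunits were thus detected unequally in quiescent cells, where Chrnd and Chrng each had 3 or 4 UMIs in a library.

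Cells holding a gene were also counted after thinning each cell to 2000 UMIs. So few UMIs miss a gene of low level in many cells that express it, and the shares depend on the summed level. Neither measure therefore separates fewer expressing cells from fewer molecules per cell. At that depth the median cell held UMIs of 7 of the 40 genes after activation for EOM and 10 for TA, against 2 at quiescence for either muscle. The reference for free RNA was 13 endothelial-like cells found in quiescent TA, whose group had a median of 5194 UMIs before thinning, against 5030 in that library's muscle cells; their median was 1 gene. Tnnt1 was present in 59.0% of cells from EOM and 70.5% of cells from TA after activation, against 16.4% from EOM and 13.1% from TA at quiescence. Chrna1 was present in 73.0% of cells from EOM and 84.5% of cells from TA after activation, against 12.6% from EOM and 12.9% from TA at quiescence. Without thinning the Tnnt1 shares were 91.0%, 95.5%, 32.0% and 28.8% in the order activated EOM, activated TA, quiescent EOM, quiescent TA, and those of Chrna1 were 98.5%, 99.0%, 25.2% and 27.7%. Both genes were in 0 of the 13 reference cells, which allows up to 23.1% and so sets no background for these genes, and quiescent EOM had no such cells.

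Des was in 73.1% of cells from EOM and 74.8% of cells from TA after activation, against 73.9% from EOM and 73.9% from TA at quiescence, with 30.8% (9.09 to 61.4) in the reference cells. The muscle cells of quiescent TA thus lay above the reference interval for Des. Tpm3 was in 17.9% of EOM and 21.8% of TA cells after activation, against 46.0% of EOM and 49.3% of TA cells at quiescence. It was in 61.5% (31.6 to 86.1) of the reference cells. Because Tpm3 also makes forms used outside muscle, endothelial-like cells may express it themselves, and their share sets no background for it. Unc45b was in 0.844% of quiescent TA cells, against 53.9% (25.1 to 80.8) of the endothelial-like cells, where it reached 232 CPM. Unc45b overlaps Slfn5os on the opposite strand, and the sources used here do not state whether counting used strand.

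Within the activated libraries, nearly every gene of the set climbed with Myog. Cells with at least 10000 UMIs were thinned to that depth and placed in 4 levels by their Myog UMIs: none, 1 to 4 (low), 5 to 32 (middle) and 33 or more (high). From no Myog to high Myog these held 1616, 1314, 993 and 1291 cells in activated EOM and 783, 1027, 1305 and 907 cells in activated TA; 352 and 262 cells were too shallow, and 182 and 263 lay within 1 UMI of a limit. The levels are ranges cut from 1 gene, not cell types. In EOM, 34 of 36 genes with at least 5 CPM in either end level were at least 2-fold higher in high-Myog than in Myog-free cells and 1, Tpm3, was at least 2-fold lower, where 9.42% of 9147 features were higher and 18.1% lower. In TA, 32 of 36 were higher and none lower, where 8.29% of 9020 features were higher and 12.7% lower. The median log2 ratio was 4.89 in EOM and 3.12 in TA, against -0.21 and -0.16 over all features. Actn2, Myom1, Myom2, Myoz2, Tcap, Ldb3, Ckm, Casq2, Cacna1s and Unc45b passed 5 CPM through the high-Myog cells alone in both muscles. Mybph and Ryr1 did so in EOM and Atp2a1 in TA, so the filter favoured rises. With a minimum of 20 CPM the EOM median was 3.73. Without cells holding the proliferation genes Mki67 or Top2a, the medians were 3.26 in EOM and 2.84 in TA. There the low, middle and high limits were cut anew among the remaining cells, with 235 EOM and 157 TA cells at high Myog. Those medians thus reflect other limits as well as other cells. Summed over the set, the level through the 4 bins was 4354, 4967, 12697 and 26201 CPM in EOM and 5916, 7016, 14191 and 29389 CPM in TA.

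By ratio, the step from low to middle Myog was larger than that from middle to high for 33 of 36 genes in EOM and 32 of 36 in TA, while the summed CPM grew most from middle to high. Myog itself, which set the bins, rose 15.2-fold from low to middle and 2.54-fold from middle to high in EOM. In TA its steps were 9.36-fold and 2.73-fold. The bin limits thus spaced the steps unequally, and the sizes of the steps do not show when the genes rise. The low bin differed little from the Myog-free bin, with a ratio for Mylpf of 1.40 in EOM and 1.44 in TA and for Myl1 of 0.989 in EOM and 1.28 in TA. The middle bin stood 25.3-fold above the low bin for Myl1 in EOM and 17.2-fold in TA, and the high bin stood 4.64-fold and 6.65-fold above the middle one. Cells holding a UMI of the proliferation genes Mki67 or Top2a made up 98.0%, 97.5%, 90.6% and 58.7% of the bins from no to high Myog in EOM and 98.3%, 98.0%, 89.4% and 58.1% in TA. Cell cycle and Myog level thus moved together, and their parts in the gene levels were not tested.

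The genes differed in how low they were in Myog-free cells. In EOM, 10 genes were at least 50-fold higher in high-Myog than in Myog-free cells: Myl1, Tnnt2, Tnni1, Tnnc1, Mybph, Myom2, Myoz2, Ckm, Casq2 and Unc45b. In TA there were 6: Myl1, Myoz2, Ckm, Casq2, Cacna1s and Unc45b. A further 12 genes in EOM and 11 in TA rose between 10-fold and 50-fold, Atp2a1, Myl4, Actn2 and Ldb3 among them in both. Ttn, Tnnt1, Tnnt3, Tnni2, Tpm2, Mybpc1, Cryab, Cacng1, Chrnd and Chrng rose between 2-fold and 10-fold in both muscles. Myoz2, Myom1, Tcap and Cacna1s, which no whole library brought to 5 CPM, reached 14.3, 9.38, 16.3 and 13.2 CPM in high-Myog EOM cells and 18.4, 10.8, 9.97 and 8.58 CPM in high-Myog TA cells.

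**Figure D2:**
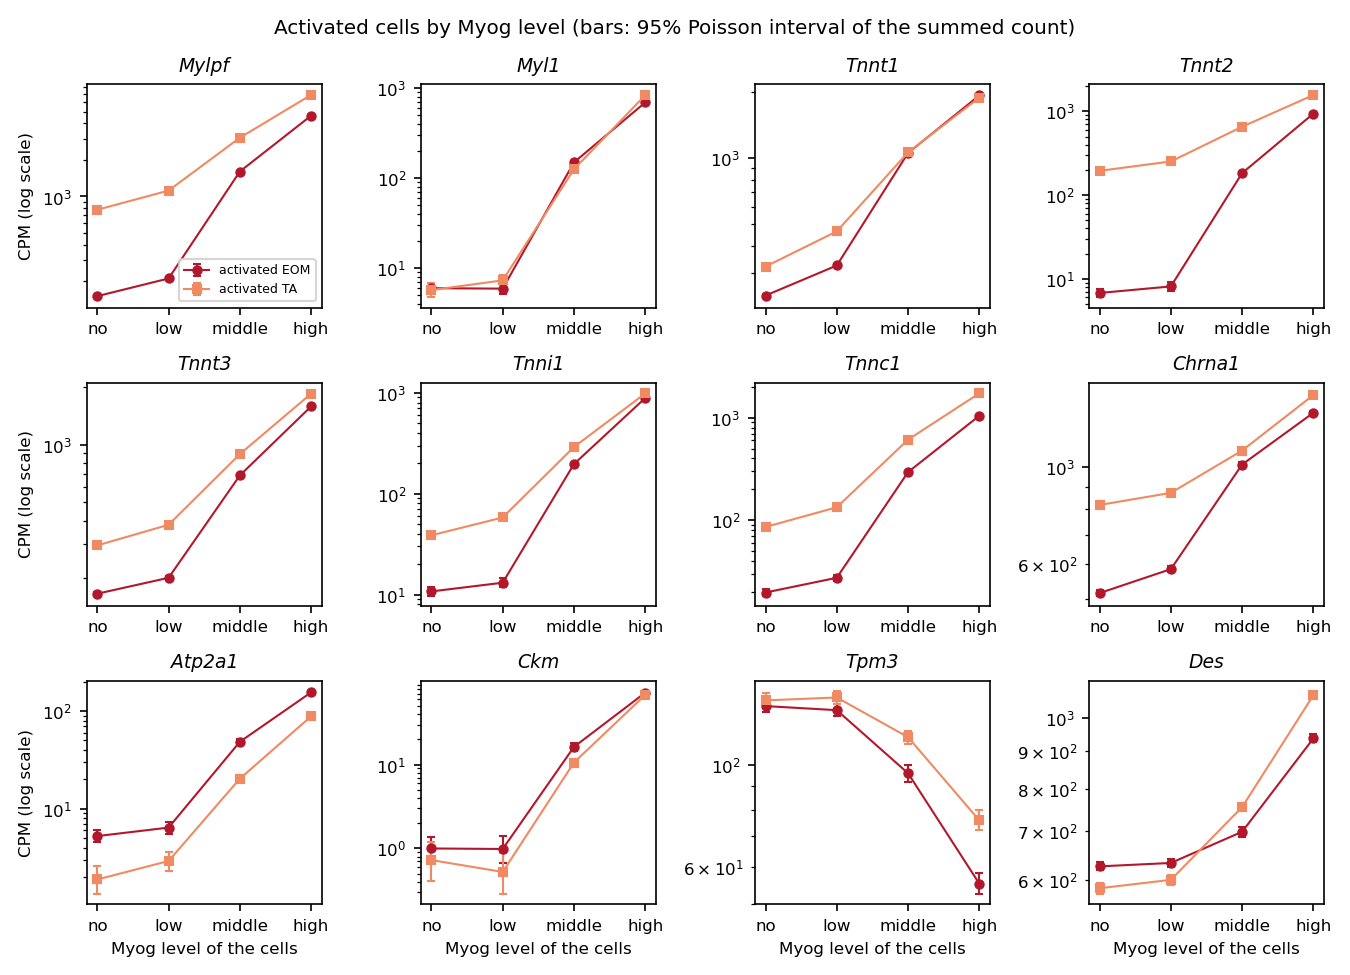
CPM of 12 genes (log axes, each with its own range) in activated EOM and activated TA cells with no, low, middle and high Myog; bars are 95% Poisson intervals of the summed counts. Tnnt2 and Mylpf start at different levels in the 2 muscles and come closer at high Myog, Myl1 and Ckm rise steeply in both, and Tpm3 falls.

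Myl1 and Ckm had steep courses in both muscles, within 2-fold of each other at every Myog level. The ratio of EOM over TA was 1.537 (1.325 to 1.782) for Ckm at middle Myog. For Myl1 it was 1.191 (1.138 to 1.246) at middle and 0.8307 (0.8135 to 0.8482) at high Myog. From no to high Myog, Myl1 was at 5.94, 5.87, 148 and 688 CPM in EOM and 5.66, 7.26, 124 and 828 CPM in TA. Ckm was at 0.998, 0.984, 16.2 and 71.9 CPM in EOM and 0.726, 0.524, 10.6 and 67.7 CPM in TA. High over no Myog, Myl1 was 116 (102 to 132)-fold higher in EOM and 146 (122 to 177)-fold in TA, and Ckm 72.0 (52.5 to 102)-fold and 93.2 (56.3 to 167)-fold. Both were low until the middle bin in either muscle.

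Chrna1, Tpm1 and Des were already high in Myog-free cells. Chrna1 was at 516, 585, 1013 and 1329 CPM in EOM and 819, 873, 1090.0 and 1459 CPM in TA from no to high Myog. Tpm1 was at 1080.0, 1189, 1904 and 2238 CPM in EOM and 830.4, 912, 1167 and 1478 CPM in TA. Des was at 627 CPM without Myog and 937 CPM at high Myog in EOM, and at 585 and 1073 CPM in TA. Among the counted genes that rose with Myog, these had the Myog-free level nearest to that of high-Myog cells. It was 66.9% for Des, 48.2% for Tpm1 and 38.8% for Chrna1 in EOM, and 54.5%, 56.2% and 56.2% in TA.

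Tpm3 alone went down. It was at 134, 132, 96.0 and 55.3 CPM from no to high Myog in EOM, and at 138, 140.2, 115 and 75.9 CPM in TA. The ratio of high over no Myog was 0.412 (0.388 to 0.436) in EOM and 0.549 (0.516 to 0.584) in TA, so that it passed the 2-fold limit in EOM only; the difference between the muscles was not tested.

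Free RNA from strongly expressing cells adds UMIs to the others, and no cluster of the activated libraries was named as another cell type to measure it. The level in Myog-free cells as a percentage of the high-Myog level was 0.863% for Myl1, 1.39% for Ckm, 0.719% for Tnnt2, 3.25% for Mylpf and 16.6% for Tnni2 in EOM. In TA the percentage was 0.683% for Myl1, 1.07% for Ckm, 12.4% for Tnnt2, 11.3% for Mylpf and 21.8% for Tnni2. The part of free RNA in these levels was not tested.

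Slow, fast and cardiac forms were compared as shares of the UMIs of their family, each UMI standing for 1 captured molecule. The regulatory light chain was the fast form almost entirely, with Mylpf holding 99.98% of the activated EOM and 99.99% of the activated TA UMIs. Myosin-binding protein C was the slow form almost entirely, with Mybpc1 holding all 6650 UMIs of activated EOM and 99.9% of those of activated TA. Fast light chains and slow binding protein thus coexisted in the same libraries. Fast Actn3 held 81.6% of the activated EOM, 90.4% of the activated TA, 92.9% of the quiescent EOM and 97.6% of the quiescent TA alpha-actinin UMIs. Slow and cardiac Myoz2 held 86.4% (83.2 to 89.1) of the activated EOM and 89.8% (87.0 to 92.2) of the activated TA myozenin UMIs.

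The essential light chain moved from its embryonic towards its fast form. Myl1 held 37.9% (37.5 to 38.3) of the activated EOM, 45.8% (45.3 to 46.2) of the activated TA, 8.26% (4.03 to 14.7) of the quiescent EOM and 5.56% (2.07 to 11.7) of the quiescent TA UMIs, and nearly all the rest was Myl4. From no to high Myog the Myl1 share was 16.6%, 13.4%, 32.7% and 40.7% in EOM and 14.4%, 14.1%, 35.5% and 51.3% in TA. It was higher in TA than in EOM at high Myog, beyond counting error.

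In troponin T the muscles used the cardiac form unequally. Slow Tnnt1 held 48.7% of the activated EOM, 38.5% of the activated TA, 95.5% of the quiescent EOM and 97.2% of the quiescent TA troponin T UMIs. Cardiac Tnnt2 held 15.1% (14.96 to 15.3) of the activated EOM and 26.8% (26.6 to 26.9) of the activated TA UMIs, and fast Tnnt3 held 36.2% and 34.7%. From no to high Myog the Tnnt2 share was 1.65%, 1.52%, 9.47% and 21.1% in EOM and 24.0%, 23.0%, 25.1% and 29.5% in TA. The cardiac form thus went with Myog in EOM and was a steady part of the mixture in TA.

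Troponin I turned slow with Myog in both muscles. Tnni1 held 41.4% of the activated EOM and 39.2% of the activated TA UMIs, and from no to high Myog its share was 7.81%, 7.83%, 29.5% and 53.6% in EOM and 15.8%, 17.7%, 33.2% and 51.0% in TA. The quiescent libraries held 15 and 19 troponin I UMIs in EOM and TA, too few for a share. Troponin C was mostly the slow and cardiac form throughout, with Tnnc1 at 65.5% of the activated EOM and 63.8% of the activated TA UMIs, and between 56.9% and 67.1% over the EOM bins and 60.7% and 64.4% over the TA bins.

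Tropomyosin shares turned over with activation. Tpm1 held 63.4% of the activated EOM, 61.3% of the activated TA, 20.6% of the quiescent EOM and 11.9% of the quiescent TA tropomyosin UMIs. Tpm3 held 4.51% of the activated EOM, 6.63% of the activated TA, 75.7% of the quiescent EOM and 84.9% of the quiescent TA UMIs. The Tpm2 share was 27.7% without Myog and 40.2% at high Myog in EOM, and 28.8% and 39.7% in TA.

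**Figure D3:**
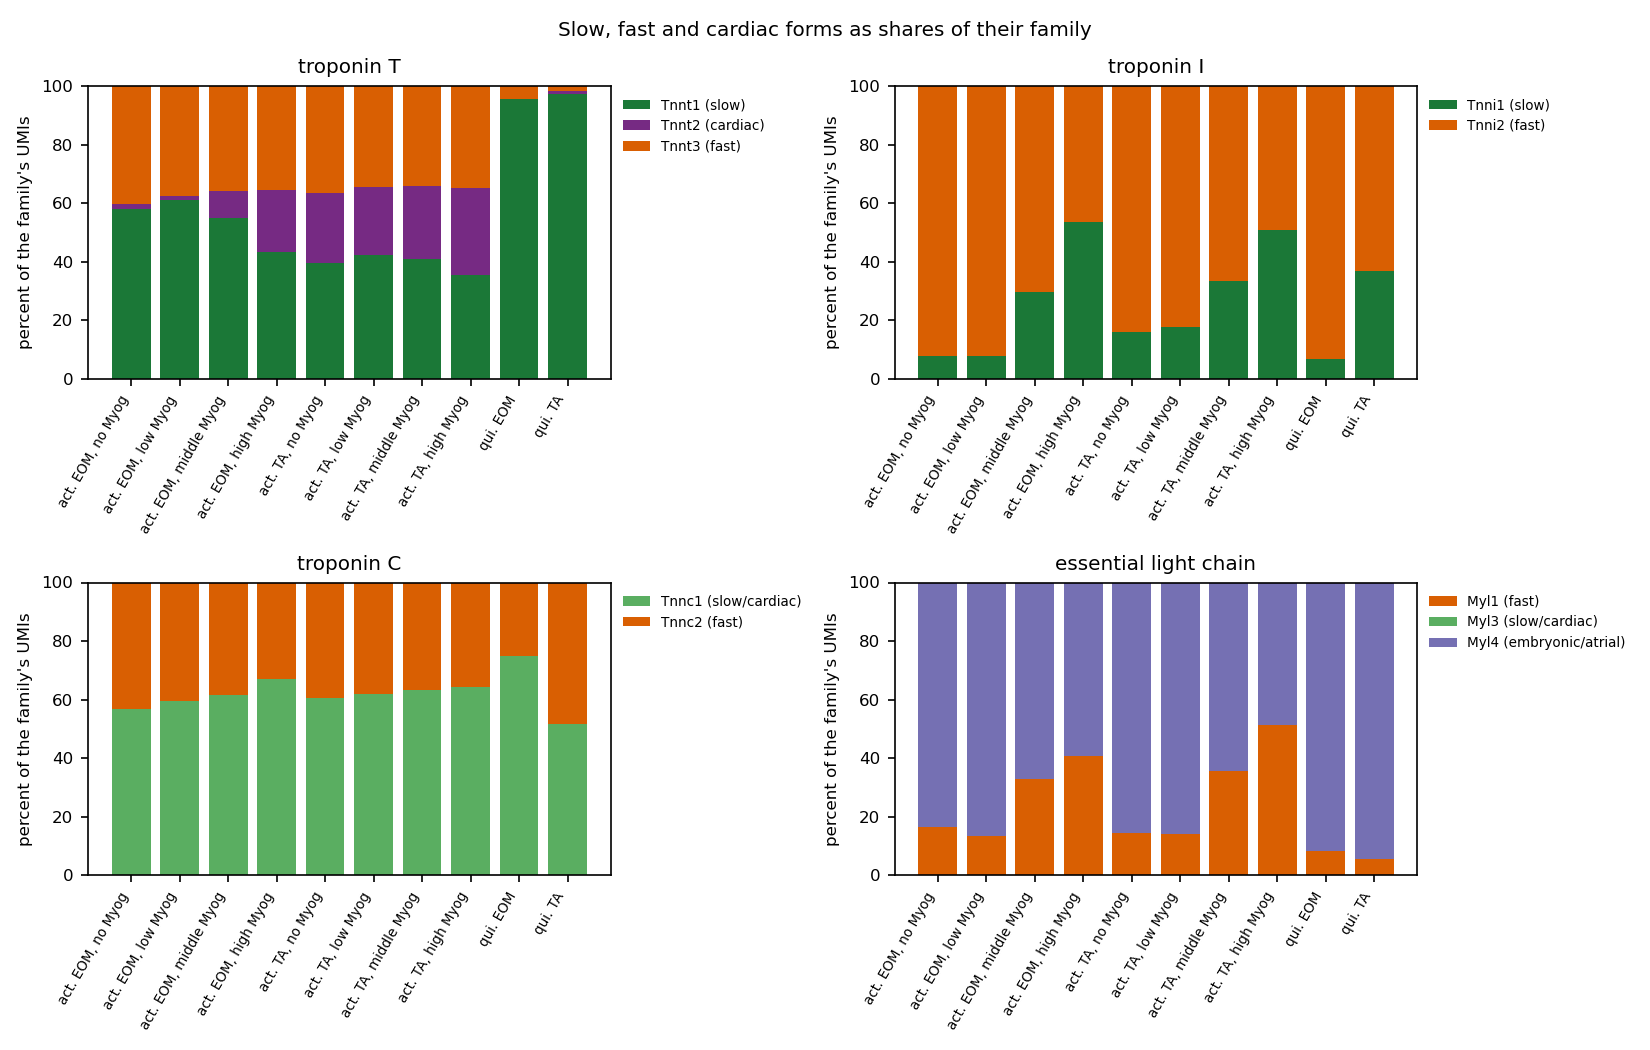
Stacked bars of the percentage of a family's UMIs held by each gene in troponin T, troponin I, troponin C and the essential light chain, for activated EOM and activated TA cells by Myog level and for the quiescent EOM and TA libraries. Tnnt2 is 1.65% of troponin T in Myog-free EOM cells and 24.0% in Myog-free TA cells; quiescent bars of troponin I and troponin C rest on 15 to 31 UMIs.

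Between the activated libraries the troponins and Mylpf were lower in EOM than in TA, and few other genes differed much. Of 32 genes none was at least 2-fold higher in EOM and 3 were at least 2-fold lower, namely Tnnt2, Tnnc1 and Tnnc2, where 2.99% of 8890 features were higher and 1.36% lower. The median log2 ratio of EOM over TA was -0.13, against -0.01 over all features. Tnnt2 was at 246 CPM in EOM and 640.2 CPM in TA, a ratio of 0.384 (0.379 to 0.389), Tnnc1 at 299.6 CPM in EOM and 607 CPM in TA, a ratio of 0.494 (0.487 to 0.5003), and Tnnc2 at 158 CPM in EOM and 344 CPM in TA, a ratio of 0.458 (0.450 to 0.466). Mylpf, at 0.501 (0.498 to 0.504), just missed the limit and Cryab had 0.542 (0.536 to 0.549). On the other side Atp2a1 had 1.81 (1.73 to 1.90), Actn2 1.71 (1.58 to 1.84), Tpm1 1.39 (1.38 to 1.40) and Tpm2 1.34 (1.33 to 1.36). In the 793 EOM and 650 TA activated cells with no UMI of Mki67 or Top2a, none of the 3 passed the limit, with log2 ratios of EOM over TA of -0.68 for Tnnt2, -0.61 for Tnnc1 and -0.78 for Tnnc2. With up to 20% mitochondrial UMIs allowed Tnnc1 also lost the limit, at -0.99. Mylpf passed the limit at -1.01 under TMM, -1.06 under median-of-ratios scaling and -1.48 at up to 5% mitochondrial UMIs. It also passed at -1.15 without clusters led by markers of other cell types and at -1.03 with no doublet or cluster removal. In cells with no UMI of Myog, Mymk or Mymx, Mylpf was at -2.39. Its log2 ratio fell short at up to 20% (-0.97) and in cells with no UMI of Mki67 or Top2a (-0.49).

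Myog-free cells made up 31.0% of binned cells in EOM and 19.5% in TA, and high-Myog cells 24.8% and 22.6%, so the muscles were also compared with the 4 Myog bins given the same weights in both. Then 1 of 34 genes, Tnnt2, was at least 2-fold lower in EOM and none higher, where 2.74% of 8869 features were higher and 1.33% lower. The ratio was 0.420 for Tnnt2, 0.502 for Tnnc2, 0.539 for Tnnc1, 0.554 for Mylpf and 0.564 for Cryab, and 1.91 for Atp2a1 and 1.81 for Actn2. All 5 of the lower genes were nearer to 1 than in the whole libraries, and both of the higher ones further from it. Without the cells that held Mki67 or Top2a, and with Myog limits cut anew among the rest, the log2 ratio of Tnnt2 at equal bins was -0.72, short of the limit.

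The muscles stood further apart in Myog-free than in high-Myog cells. This gap was not particular to Myog-free cells. For 20 of the 26 genes counted in them, the ratio of EOM over TA was further from 1 at low Myog than without Myog. Among Myog-free cells 7 of 26 genes were at least 2-fold lower in EOM and 1 higher, where 2.19% of 8911 features were lower and 3.53% higher; the 7 were Mylpf, Tnnt2, Tnni1, Tnnc1, Tnnc2, Actn3 and Cryab, and the 1 was Atp2a1. Among high-Myog cells none of 36 genes was 2-fold apart in either direction, where 1.62% of 8446 features were lower in EOM and 1.81% higher. The median log2 ratio of EOM over TA was -0.60 without Myog and 0.00 at high Myog, against -0.01 and -0.04 over all features. The 2 medians rest on different genes, the 26 and the 36 counted. The comparisons in Myog-free and in high-Myog cells were added after the binned levels had been seen. Without cells holding Mki67 or Top2a, only 36 Myog-free EOM and 13 Myog-free TA cells were left, in which the median log2 ratio was -0.16 and the values were -5.19 for Tnnt2, 0.03 for Atp2a1 and -0.77 for Cryab, so that the last 2 lost the limit.

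**Figure D4:**
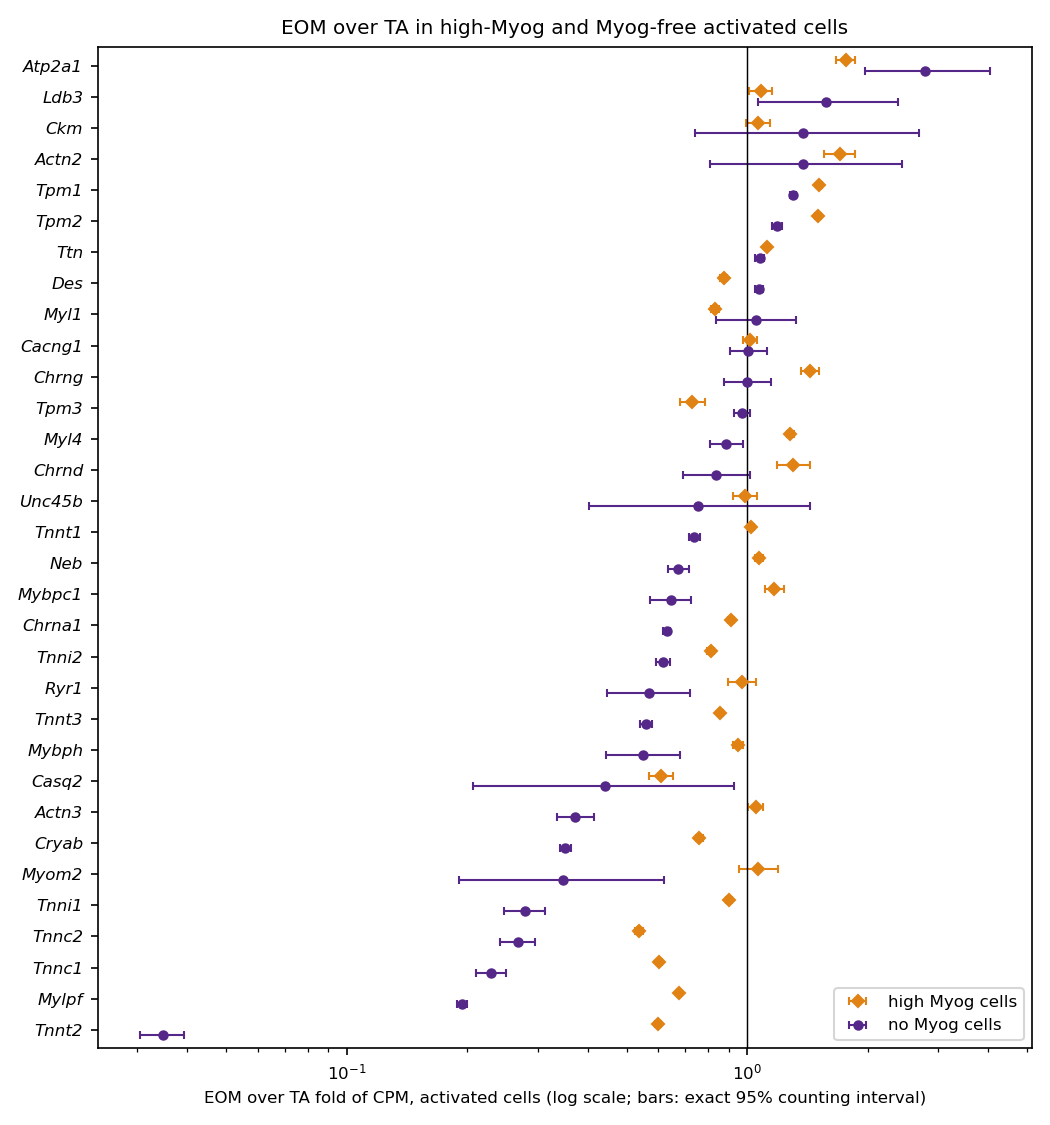
Ratio of CPM in EOM over TA (log axis) in high-Myog cells and in Myog-free cells of the activated libraries, by gene; bars are exact 95% counting intervals and the vertical line marks equal levels. Tnnt2 is at 0.0347 in Myog-free cells and 0.600 at high Myog, and Atp2a1 is above 1 in both.

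Tnnt2 had the lowest ratio among the genes counted in Myog-free cells. From no to high Myog it was at 6.76, 8.09, 183 and 939 CPM in EOM, against 194, 252, 654 and 1566 CPM in TA. The ratio of EOM over TA was 0.0347 (0.0306 to 0.0394), 0.0321 (0.0282 to 0.0364), 0.279 (0.270 to 0.289) and 0.600 (0.590 to 0.610) in the same order. At 2000 UMIs Tnnt2 was in 1.61% (1.05 to 2.35) of Myog-free EOM cells and 29.1% (26.0 to 32.4) of Myog-free TA cells, and without thinning in 14.4% and 90.5%.

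Mylpf had the same form at a smaller size, at 151, 211, 1605 and 4632 CPM in EOM, against 777, 1118, 3047 and 6869 CPM in TA. Its ratio of EOM over TA was 0.194 (0.188 to 0.200) without Myog and 0.674 (0.669 to 0.679) at high Myog, and at 2000 UMIs it was in 21.4% of Myog-free EOM and 60.03% of Myog-free TA cells. For Tnnc1 the ratio was 0.229 (0.210 to 0.249) without Myog and 0.604 (0.594 to 0.613) at high Myog, for Tnnc2 0.268 (0.242 to 0.296) and 0.536 (0.524 to 0.548), and for Tnni1 0.278 (0.247 to 0.313) and 0.901 (0.884 to 0.918). Actn3 had 0.373 (0.336 to 0.413) without Myog and 1.05 (1.01 to 1.09) at high Myog, and Cryab 0.352 (0.341 to 0.362) and 0.759 (0.745 to 0.773). Tnnc2 overlaps Ube2c, a gene of dividing cells, on the opposite strand, and Tnnc1 overlaps Nisch.

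Of the 26 genes counted in Myog-free cells, 16 had a ratio below 1 and 5 a ratio above 1 with the counting interval on that side. Chrna1, for example, had 0.630, Tnni2 0.617 and Tnnt3 0.558. Some genes were close to level. Myl1 was at 5.94 CPM in Myog-free EOM and 5.66 CPM in Myog-free TA cells, a ratio of 1.05 (0.837 to 1.32), and was present at 2000 UMIs in 1.18% and 1.66% of them. Cacng1 had a ratio of 1.01 (0.907 to 1.12) without Myog, Ttn 1.07 (1.05 to 1.10) and Des 1.07 (1.05 to 1.09). Atp2a1 was higher in EOM at every level, with ratios of 2.78, 2.20, 2.39 and 1.76 from no to high Myog on 5.25 CPM in EOM and 1.89 CPM in TA at the low end. Atp2a1 overlaps Rabep2 on the opposite strand.

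The Myog-free bins could hold cells with Myog UMIs lost to thinning: their unthinned Myog level was 33.1 CPM in EOM and 41.6 CPM in TA. Cells with no UMI of Myog, Mymk or Mymx at full depth, 687 in activated EOM and 215 in activated TA, gave 6.94 CPM in EOM and 179 CPM in TA for Tnnt2, 122 and 643 CPM for Mylpf, 17.5 and 66.3 CPM for Tnnc1 and 9.51 and 36.7 CPM for Tnni1. Myl1 was at 5.53 CPM in EOM and 5.66 CPM in TA in these cells. The differences were about as large as in the Myog-free bins. Of the 9 markers of differentiating muscle, Myog itself and Tnnt2 among them, the summed level in Myog-free cells was 243.5 CPM in EOM and 1395 CPM in TA. Of the 8 that could be counted there, 5 were at least 2-fold lower in EOM and 1 at least 2-fold higher. Among 8911 features, 2.19% were lower and 3.53% higher. The part of cells further along towards differentiation, or of free RNA, in these differences was not tested.

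The smooth muscle and mural markers also moved with activation, and Des is itself on that list. Their sum was 2989 CPM in activated EOM and 2237 CPM in activated TA, against 1555 CPM in quiescent EOM and 1332 CPM in quiescent TA, with 5 of 10 genes at 5 CPM in activated EOM, 4 in activated TA and 5 in each quiescent library. Acta2 made up 2027 CPM of it in activated EOM and 1178 CPM in activated TA. Tagln was at 191 CPM in activated EOM and 302 CPM in activated TA, against 129 CPM in quiescent EOM and 121 CPM in quiescent TA. Notch3 was at 29.6 CPM in activated EOM and 10.8 CPM in activated TA, against 148 CPM in quiescent EOM and 152 CPM in quiescent TA. Pdgfrb was at 30.7 CPM in activated EOM and 1.07 CPM in activated TA, against 5.49 CPM in quiescent EOM and 2.88 CPM in quiescent TA. Myh11, Cnn1 and Kcnj8 were below 1 CPM in all 4 libraries, and Rgs5 and Abcc9 reached at most 5.04 and 2.42 CPM. Leaving out the 581 activated TA cells led by mural markers gave a median log2 ratio of EOM over TA in activated cells of -0.26, in place of -0.13. Tnnt2 was then at -1.54, Tnnc1 at -1.2, Tnnc2 at -1.3 and Mylpf at -1.15. The part of smooth muscle or mural cells in the levels of the set was not tested.

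Between the quiescent libraries the set was mostly level or too low to compare. Only 12 genes reached 5 CPM in either library, of which 1, Neb, was at least 2-fold higher in EOM and 1, Cryab, at least 2-fold lower, where 4.83% of 9227 features were higher and 2.64% lower. Neb was at 15.9 CPM in EOM and 5.56 CPM in TA, a ratio of 2.87 (2.24 to 3.70), and at 2000 UMIs it was in 2.79% (2.27 to 3.39) of EOM and 1.02% (0.684 to 1.46) of TA cells. Cryab was at 328 CPM in EOM and 662 CPM in TA, a ratio of 0.494 (0.478 to 0.511). Barcodes with more than 10% mitochondrial UMIs, which had been left out and made up 11.7% of quiescent EOM and 40.5% of quiescent TA barcodes, held Cryab at 361 CPM in EOM and 531 CPM in TA. The Cryab difference lost the 2-fold limit with up to 20% mitochondrial UMIs allowed, at a log2 ratio of -0.99, and was 0.02 at up to 5%, where 263 EOM and 46 TA cells remained.

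The other 10 genes were within 2-fold. Tpm1 was higher in EOM at 1.81 (1.67 to 1.97), Tnnt1 at 1.25 (1.16 to 1.34) and Tpm2 at 1.22 (1.02 to 1.46). Mybpc1 was lower in EOM at 0.667 (0.586 to 0.760), Atp2a1 at 0.784 (0.657 to 0.935), Actn3 at 0.866 (0.788 to 0.952) and Tpm3 at 0.931 (0.899 to 0.965). Des had 1.05 (1.03 to 1.08), Chrna1 1.01 (0.932 to 1.09) and Myl4 0.951 (0.720 to 1.26); TMM and median-of-ratios scaling, which moved these log2 ratios by -0.12 and -0.13, put Des and Chrna1 on the other side of 1. Tnnt2 had no UMI in quiescent EOM and 12 UMIs in quiescent TA, and both levels were too low for the 5 CPM limit. The median log2 ratio was -0.03, against 0.11 over all features.

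Related genes outside the set were followed in 3 lists. Of 39 other sarcomere genes 30 could be counted in EOM and 30 in TA, and 25 and 24 were at least 2-fold higher in activated cells, 3 and 2 lower. The largest rises included leiomodin 3 (Lmod3), a nucleator of thin filaments, at 128.6 CPM in activated EOM and 72.6 CPM in activated TA, against no UMI in quiescent EOM and 1 UMI in quiescent TA. Lmod3 was thus at least 749.8-fold higher in EOM, and the ratio was 1110 (199 to 43863) in TA. The skeletal myosin light chain kinase gene Mylk2 was lower, at 1.51 CPM in activated EOM and 0.917 CPM in activated TA, against 12.1 CPM in quiescent EOM and 5.23 CPM in quiescent TA.

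Of 30 other excitation-contraction genes, 21 could be counted in EOM, with 11 up at least 2-fold on activation and 4 down, and 22 in TA, with 12 up and 4 down. Ryr3, a calcium release channel also used outside adult fibres, was among the lower ones in TA, at 0.791 CPM in activated TA against 43.8 CPM in quiescent TA, and sarcolipin (Sln), an inhibitor of the calcium pump, in EOM, at 3.85 CPM in activated EOM against 21.6 CPM in quiescent EOM. Of 14 other synapse genes, 4 of 10 counted were up in EOM and 4 down, and 3 of 8 were up in TA and 4 down. The shares of features at least 2-fold higher or lower given above apply to these lists too.

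Between muscles, the activated libraries had 5 of 29 other sarcomere genes at least 2-fold lower in EOM and none higher. Among 8890 features, 1.36% were lower in EOM and 2.99% higher, which applies to all 3 lists. Hspb7, a small heat shock protein of striated muscle, was at 9.19 CPM in EOM and 34.7 CPM in TA, and Xirp1 at 18.8 CPM in EOM and 44.2 CPM in TA. Of 22 other excitation-contraction genes 2 were higher in EOM and 1 lower: parvalbumin (Pvalb), a calcium buffer of fast fibres, was at 6.01 CPM in EOM and 0.332 CPM in TA, triadin (Trdn) at 9.02 CPM in EOM and 3.57 CPM in TA, and Cacng6 at 3.04 CPM in EOM and 10.6 CPM in TA. In quiescent cells Ryr3 was at 3.49 CPM in EOM and 43.8 CPM in TA, a ratio of 0.0795 (0.0602 to 0.1035), leiomodin 2 (Lmod2) was at 3.03 CPM in EOM and 26.7 CPM in TA, and Sln at 21.6 CPM in EOM and 8.77 CPM in TA. These 3 genes were named for the size of their differences, and Sln, at a ratio of 2.46, differed less than Neb of the set, at 2.87. Most companion genes were closer between the quiescent libraries. Among 11 other sarcomere genes counted, 1 passed the 2-fold limit in each direction, and the median log2 ratio was -0.09. The same held for 1 in each direction among 15 other excitation-contraction genes, with a median of -0.06. Among 7 other synapse genes 1 passed it, on the EOM side, with a median of 0.22.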

How the data were processed

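The 4 droplet libraries were deposited as unnormalised UMI counts, a whole number for each gene in each cell barcode. The submitters' processing notes name Cell Ranger 3.0.2 and the mm10 build for this step by the authors. Annotation release, cell calling and strandedness are not given there.

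Barcodes with at least 500 genes and at most 10% mitochondrial UMIs were kept. Scrublet's automatic threshold called 0 or 1 doublets per library and so did not work; the highest scores were removed by rank, 0.8% per 1000 barcodes. Clusters (scanpy 1.11.5, Leiden of igraph 0.11.9) led by markers of another cell type, with Pax7 and Myf5 below 0.5 of the level in other cells, were removed, which took out 16 endothelial-like cells found in quiescent TA. That last limit was set after the clusters had been seen, and it kept 422 quiescent EOM cells led by fibroblast markers, 581 activated TA cells led by mural markers and 126 quiescent TA cells led by immune markers. Kept cells had medians of 21284 (activated EOM), 23364 (activated TA), 4664 (quiescent EOM) and 5030 (quiescent TA) UMIs.

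UMIs were summed over cells and scaled to CPM. Ratios of CPM have exact 95% intervals for a ratio of Poisson rates and shares exact binomial (Clopper-Pearson) ones. Features were counted as 2-fold apart by size alone, at 5 CPM or more in either set of cells. A gene with 0 UMIs was set at 3 UMIs, so that its ratio, given as "at least", is a bound at that floor. The exact 95% interval of such a ratio starts lower, for Mybph in EOM at 500 where the floor gave 615. No test was made, since a group is 1 library, and the procedure was tried on simulated counts. A UMI count stands for a captured molecule and was not divided by gene length. Levels in Myog bins come from unthinned UMIs, and equal-bin ratios weight each bin by its pooled share of cells. Gene positions are from GENCODE vM21, which matched all 40 genes; 17 overlap a counted gene on the opposite strand and 1, Myom1, on its own strand. Promoters are from RefSeq (GRCm38.p6).

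Every gene of the set at 5 CPM or more in any library is described, and the genes named from the companion lists are among the 3 largest changes per direction. The members and lists were chosen with earlier results of these data known. Alternatives covered edgeR 4.0.16 TMM and DESeq2 1.42.0 median-of-ratios scaling, cell filters, minimum levels, thinning depths and subsets of cells; leaving out the 3 kept marker-led clusters was added after the data had been seen.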

Additional observations from a re-analysis of the deposited data

Results flagged for a closer look

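Cryab differed in direction on activation between the muscles: activated over quiescent, its ratio of CPM was 1.06 in EOM and 0.967 in TA. The difference between the muscles was not tested. On the log2 scale the TA value was -0.05, and it was 0.23 under TMM and 0.12 under median-of-ratios scaling, which gives both muscles the same direction.

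For 4 genes the muscles differed in opposite directions in the activated and the quiescent libraries, and none of these differences was tested. Neb had a ratio of EOM over TA of 0.909 in activated and 2.87 in quiescent cells, and Atp2a1, the calcium pump gene, 1.81 in activated and 0.784 in quiescent cells. Tnnt1 had 0.859 in activated and 1.25 in quiescent cells, and Des 0.953 in activated and 1.05 in quiescent cells. For Des in quiescent cells the log2 ratio of 0.08 became -0.04 under TMM and -0.06 under median-of-ratios scaling, the direction it had in activated cells.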

How the results depend on the processing

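No paired analysis was possible because each group has 1 library and the labels give no replicate numbers; for the same reason no replicate could be left out. Counts of genes at least 2-fold apart moved by no more than 1.5 times under the alternatives run, except for these. Activated over quiescent in EOM, the count lower was 2 in place of 1 with a minimum of 1 UMI. EOM over TA in activated cells, where 0 were higher and 3 lower, gave 1 and 6 at no more than 5% mitochondrial UMIs, 1 and 0 in cells with no UMI of Mki67 or Top2a, and 7 lower in cells with no UMI of Myog, Mymk or Mymx. EOM over TA in quiescent cells, with 1 higher and 1 lower, gave 0 lower at up to 20% mitochondrial UMIs, 0 higher and 2 lower at up to 5%, 2 lower with no doublet or cluster removal, 0 higher with a minimum of 20 CPM, and 5 higher and 8 lower with a minimum of 1 UMI. High over no Myog in TA had 1 lower, in place of 0, without cells holding Mki67 or Top2a. With equal Myog bins, 2 genes were lower in place of 1 when cells were thinned to 5000 or to 2000 UMIs, and 1 was higher and 0 lower without cells holding Mki67 or Top2a. In Myog-free cells 0 were higher, in place of 1, without those cells or with a minimum of 20 CPM, and in high-Myog cells 1 was higher, in place of 0, without them. For each other set of cells or thinning depth the low, middle and high Myog limits were cut anew, so the bins changed too. The 5% limit left 614 activated EOM, 490 activated TA, 263 quiescent EOM and 46 quiescent TA cells, and the Myog-free bins without Mki67 or Top2a held 36 EOM and 13 TA cells. At the 5% limit the log2 ratio of Actn2 for activated over quiescent in EOM reversed to -0.59, and that of Cryab for EOM over TA in quiescent cells to 0.02; a gene whose floor gave no direction there has no value. Over all alternatives, 1400 log2 ratios of single genes moved by no more than their counting error, 570 moved by more, and 2 of genes at least 2-fold apart reversed. Medians over the set moved by more than counting error in 19 of 67 cases. Activated over quiescent they were 5.97 in EOM and 5.52 in TA as reported, 3.79 and 2.63 at the 5% limit, and 4.26 and 4.45 with 1 CPM added before the logarithm. EOM over TA in activated cells, the median was -0.13 as reported and ran from -0.55 in cells with no UMI of Myog, Mymk or Mymx to 0.06 in those with none of Mki67 or Top2a. The cause of these changes was not tested. Depth limits the quiescent levels, where 20 of the 32 measured genes were below 5 CPM in each library.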
